A study of Nitraria sibirica with 9 samples.

Results

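In leaves of the salt-tolerant shrub Nitraria sibirica, 150 assembled clusters stood higher after 3 days at 100 mM NaCl than both without added salt and at 400 mM. They were chosen from a deposited table of 31628 clusters, out of 126059 clusters counted in the series. The selection used the FPKM of the deposited table, a fragment count corrected for cluster length and library depth. For the shortest member the length corrected for was less than the length listed, as given below. The values that define the clusters are therefore given here as a description. A cluster was kept if its lowest library at 100 mM lay above all 6 libraries at 0 and 400 mM. Its mean at 400 mM had to lie within 0.3 of its mean at 0 mM on the log2 scale, and its mean over 9 libraries under 500 FPKM. The clusters that remained were ranked by the log2 ratio of the means at 100 and 0 mM, and the 150 highest were taken.

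The groups were leaves of greenhouse seedlings at 0 mM, 100 mM and 400 mM NaCl, each with 3 libraries. Salt was added in daily steps, and the treatments were started so that all levels were reached together, per the labels' protocols. Seedlings at 400 mM therefore had begun to receive salt earlier than those at 100 mM, and salt level and time in salt cannot be told apart. The labels number the replicates without saying whether they came from separate plants, so the p-values below speak of the spread among 9 libraries, part of which could be technical. Libraries held 16502576 to 19094481 counts without salt, 18070003 to 22494402 at 100 mM and 21814761 to 23932857 at 400 mM.

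Sodium chloride stresses a leaf both by lowering the water potential outside the cells and by the toxicity of the ions, and plants respond with changes in transport, compatible solutes and protective proteins. Many plants of saline habitats tolerate, and some grow best at, moderate salt, while strong salinity slows growth. A transcript that is high at a moderate level alone follows a course that a comparison of high salt with no salt would miss. The files used here pair no cluster with a gene name, protein description or sequence, so the clusters are described by level, course, spread and length and by no function. The tissue label could not be checked against marker genes for the same reason.

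Of the 31628 clusters of the table, 732 (2.31%) had all 3 libraries at 100 mM above the other 6. In 408 of these the mean at 400 mM was above that at 0 mM by at least 0.3 on the log2 scale, in 56 it was below by at least as much, and 268 lay between. The limit of 500 FPKM took out 3 of these, which left 265 clusters. With the levels exchanged, the same conditions were met by 463 clusters with 400 mM as the high level and by 2005 with 0 mM as the high level. These counts moved with the scaling and the libraries. On FPKM rescaled with the factors of the trimmed mean of M-values (TMM), which set most clusters to a common level, they were 627 with 100 mM as the high level, 538 with 400 mM and 923 with 0 mM. The order of 100 and 400 mM therefore turned. It also turned without 100 mM replicate 1, at 541 against 489, and without 100 mM replicate 3, at 677 against 546. Without 100 mM replicate 2 it did not turn, at 380 against 666. Leaving out a 100 mM library eases the condition of no overlap and leaves fewer libraries at 100 mM to meet it. Every cluster that met the conditions with 100 mM as the high level still meets them, so that count could not fall. The orders without a 100 mM library therefore do not show which level holds more clusters. With the direction turned round, 853 clusters were lowest at 100 mM with like means at 0 and 400 mM. The median cluster of the table had a log2 ratio of -0.21 at 100 mM and -0.14 at 400 mM against 0 mM, so that on the deposited scale the median cluster stood lower in salt.

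**Figure D1:**
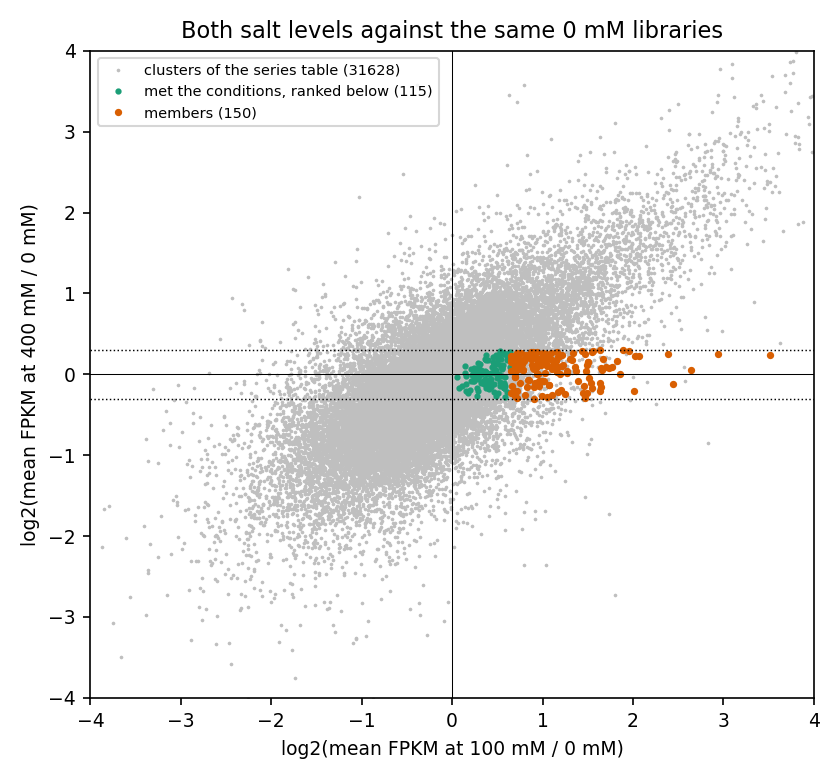
Each point is 1 cluster of the deposited table, with the log2 ratio of mean FPKM at 100 mM to 0 mM on the x axis and at 400 mM to 0 mM on the y axis; both ratios share the 0 mM libraries. The 150 members (orange) lie between the dotted lines at -0.3 and 0.3 and to the right of the 115 clusters that met the conditions at lower rank (green). The plot leaves out 51 clusters beyond -4 or 4.

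Across the 150 clusters the mean at 100 mM was 1.565 to 11.46 times the mean at 0 mM, with a median ratio of 2.00. The ratio reached 2 in 75 clusters, 3 in 22, 4 in 8 and 5 in 5. Against 400 mM the ratio ran from 1.34 to 9.70 with a median of 1.94. The rank limit fell within a smooth range. The last 5 ranks taken had ratios of 1.5704, 1.5694, 1.5688, 1.5651 and 1.5650, and the next 5, just outside, had 1.5642, 1.5547, 1.5421, 1.5374 and 1.5301.

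The cluster with the largest ratio, Cluster-23439.8993, was scarce in the libraries without salt. It stood at 0.90, 0.66 and 0.91 FPKM at 0 mM, at 6.46, 13.1 and 8.75 FPKM at 100 mM and at 0.44, 1.85 and 0.63 FPKM at 400 mM. All libraries at 100 mM were high, and the lowest of them was 3.49 times the highest of the other 6, which was 400 mM replicate 2. The means were 0.823 ± 0.141, 9.44 ± 3.37 and 0.973 ± 0.765 FPKM (SD, n = 3 each), a ratio of 11.5 between 100 and 0 mM. The fitted log2 fold change was 3.74 (standard error 0.672), and edgeR's quasi-likelihood test gave an adjusted p of 0.0562, just above the threshold of 0.05. It was among the scarce members, with 4 to 102 counts per library.

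Cluster-23439.20204, at rank 2, was uneven within every level. Its libraries held 1.22, 26.4 and 2.16 FPKM at 0 mM, 35.4, 97.8 and 95.9 FPKM at 100 mM and 17.2, 0.93 and 17.2 FPKM at 400 mM. Replicate 2 was high at 0 mM and low at 400 mM, and 100 mM replicate 1 was only 1.34 times that high 0 mM library. The means were 9.92 ± 14.3, 76.4 ± 35.5 and 11.8 ± 9.39 FPKM (SD, n = 3 each), and the adjusted p of edgeR's quasi-likelihood test was 0.309. The like level at 0 and 400 mM rested on 0 mM replicate 2. Without that library the fitted log2 fold change against 0 mM went from 3.21 to 5.72 at 100 mM and from 0.45 to 2.97 at 400 mM.

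Ranks 3 and 4 had the largest fitted differences between 400 and 100 mM among the other members. Cluster-23439.37981 held 19.8, 27.0 and 7.62 FPKM at 0 mM, 109, 181 and 49.4 FPKM at 100 mM and 20.9, 26.1 and 9.45 FPKM at 400 mM. Replicate 3 was the lowest library and replicate 2 the highest at each of the 3 levels. Its fitted log2 fold change between 400 and 100 mM was -2.64 (standard error 0.635, edgeR adjusted p = 0.533). Cluster-23439.33664 held 1.17, 1.17 and 0.52 FPKM at 0 mM, 4.09, 4.65 and 6.80 FPKM at 100 mM and 0.96, 0.46 and 1.21 FPKM at 400 mM. Its libraries at 100 mM were all at least 3.38 times as high as any other. The fitted log2 fold change between 400 and 100 mM was -2.63 (standard error 0.601, edgeR adjusted p = 0.510).

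**Figure D2:**
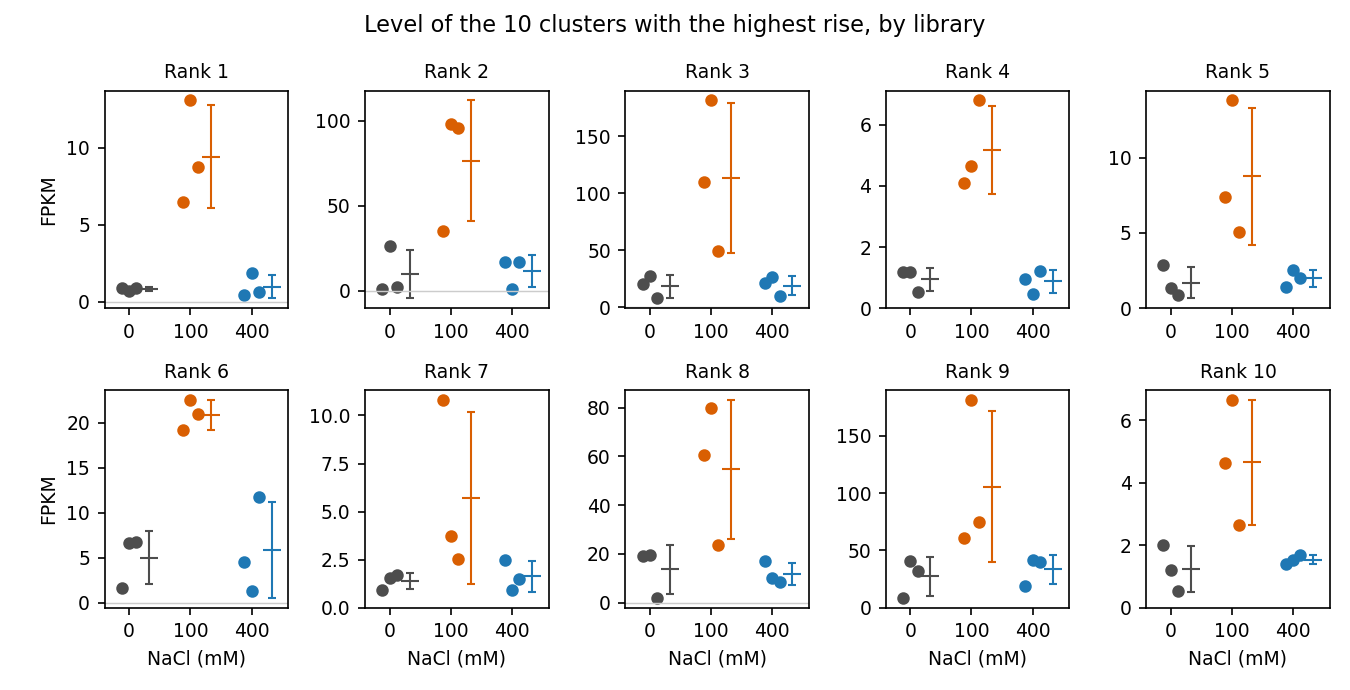
FPKM in each library (points, y axes start at or just below 0 and differ between panels) for the 10 clusters with the highest ratio, by NaCl level on the x axis, with mean ± SD of 3 libraries beside the points. At ranks 1 and 4 the 100 mM libraries are far above all others, while at rank 7 they lie at 2.55, 3.72 and 10.8 FPKM, the lowest of them 1.02 times the highest other library.

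Ranks 5 to 10 showed the same course with differing separation. Rank 5 averaged 8.76 ± 4.54 FPKM at 100 mM, against 1.68 ± 1.03 without salt and 1.99 ± 0.565 at the high level (SD, n = 3). Rank 6, a cluster of 318 bases, was the most even of them at 100 mM, at 19.2, 22.5 and 21.0 FPKM, whereas its 400 mM libraries ranged from 1.27 to 11.7. At rank 7 a single library, 100 mM replicate 1 at 10.8 FPKM, carried most of the mean. Ranks 8, 9 and 10 had ratios of 4.02, 3.87 and 3.71, and 100 mM replicate 2 was their highest library, at 79.7, 181 and 6.66 FPKM.

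The 16 members of at least 100 FPKM at 100 mM had ratios of 1.58 to 6.25 between 100 and 0 mM, with a median of 1.94. The cluster with the highest level at 100 mM, at rank 91, stood at 273 ± 119 FPKM without salt, at 525 ± 67.0 at 100 mM and at 330 ± 86.7 FPKM at 400 mM (SD, n = 3). Its 0 mM libraries were uneven, at 141, 374 and 305 FPKM, and its lowest 100 mM library was 1.0497 times the highest other. The next, at rank 140, was steady at 0 mM, with 319, 315 and 324 FPKM, and held 398, 625 and 524 FPKM at 100 mM. One 400 mM library came within 1.005 times of its lowest 100 mM library. Rank 79 held 366, 473 and 381 FPKM at 100 mM, above 160 to 272 FPKM in the other 6 libraries. Rank 105 had a mean of 403 ± 53.1 FPKM at 100 mM against 222 ± 30.6 at 0 mM, and rank 39 a mean of 353 ± 128 against 137 ± 15.7.

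The 5 clusters highest in FPKM made up 34.2% of the summed FPKM of all members at 100 mM. The 16 of at least 100 FPKM made up 68.4%. Summed over members, the libraries averaged 3170 ± 163 FPKM without salt, 6439 ± 795 with 100 mM and 3437 ± 375 with 400 mM (SD over 3 libraries), which is 0.308%, 0.641% and 0.357% of the summed FPKM of the table. Per library it was 2983, 3283 and 3243 FPKM at 0 mM, 6007, 7356 and 5952 FPKM at 100 mM and 3019, 3551 and 3743 FPKM at 400 mM. The selection fixed this order of the levels.

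Most members were of low to middling abundance. At 0 mM 18 members stood under 1 FPKM, 90 between 1 and 10, 32 between 10 and 100 and 10 at 100 or more. The table held 5.32%, 56.1%, 33.8% and 4.79% of its clusters in the same classes. The median was 4.87 FPKM at 0 mM, 9.80 at 100 mM and 5.22 at 400 mM, beside 6.34, 5.63 and 5.88 FPKM over the table. Counts behind single values ranged down to 1 read, with a median of 121, and 127 members had at least 10 counts in every library.

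Length was not a condition of the selection, although FPKM is corrected for it. The members were 292 to 5016 bases long with a median of 1442.5, beside a median of 1476 over the table. Clusters under 500 bases numbered 16 (the table held 8.98%), and those over 3000 bases 14 (the table held 11.99%). Within the members, those of larger ratio were shorter, with a median length of 940 bases at ranks 1 to 50, 1486 at ranks 51 to 100 and 1693 at ranks 101 to 150. They also varied more among replicates. The median coefficient of variation (CV) at 100 mM was 33.4%, 21.2% and 12.2% in these bands, and at 0 mM 39.0%, 29.1% and 15.0%. The condition of no overlap demands a larger ratio of a cluster with a larger spread, so the order of the CV follows in part from the selection. Whether the order of the lengths does so too was not tested.

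The longest member, at rank 18 with 5016 bases, was low in FPKM. It held 0.42, 0.60 and 0.47 FPKM at 0 mM, 0.95, 1.80 and 1.92 FPKM at 100 mM and 0.38, 0.62 and 0.34 FPKM at 400 mM. The next, at rank 132 with 4636 bases, was among the most even, at 9.07, 9.03 and 8.36 FPKM at 100 mM above 4.45 to 6.22 FPKM elsewhere. Rank 14, of 4346 bases, held 5.16, 4.65 and 4.67 FPKM at 100 mM and at most 2.72 elsewhere. The shortest, at rank 25 with 292 bases, held 34.0, 33.2 and 19.6 FPKM at 100 mM, and its lowest library was level with 0 mM replicate 2, at 19.60 against 19.59 FPKM.

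By their names, 147 of the 150 clusters (98.0%) carried the assembly number 23439, as did 99.3% of the table. The other 3, at ranks 66, 80 and 99, were scarce, at means of 3.98, 1.29 and 1.72 FPKM at 100 mM. A single pair of members had consecutive names, at ranks 15 and 97, with lengths of 3957 and 1668 bases. Their log2 levels correlated at r = 0.75 over the 9 libraries, which share the salt levels, beside a median of 0.69 over the 11175 pairs of members. The higher of them held 25.0, 13.2 and 19.5 FPKM at 100 mM and the lower 6.84, 6.39 and 5.61 FPKM.

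The libraries at 100 mM did not contribute evenly. Replicate 2 was the highest of them in 86 members (57.3%, beside 32.4% of the table). Replicate 1 was the highest in 44 (the table held 43.9%) and replicate 3 in 20 (the table held 23.6%). Replicate 3 was the lowest in 71 members (47.3%, beside 37.9% of the table). These orders are on the deposited FPKM. Rescaling with TMM multiplied replicates 1, 2 and 3 by 0.999, 1.10 and 1.13, and the orders on that scale were not counted. The median ratio to the 0 mM mean was 1.94, 2.25 and 1.81 in replicates 1, 2 and 3. All 3 libraries reached 2 times the 0 mM mean in 31 members, and in 30 members the highest 100 mM library was at least 2 times the lowest. At 400 mM replicate 1 was the lowest library in 80 members (53.3%, beside 32.5% of the table), and of the 6 libraries at 0 and 400 mM, 400 mM replicate 3 came closest to the 100 mM libraries most often, in 42 members, and 400 mM replicate 1 least often, in 10. Why the libraries differ was not tested.

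**Figure D3:**
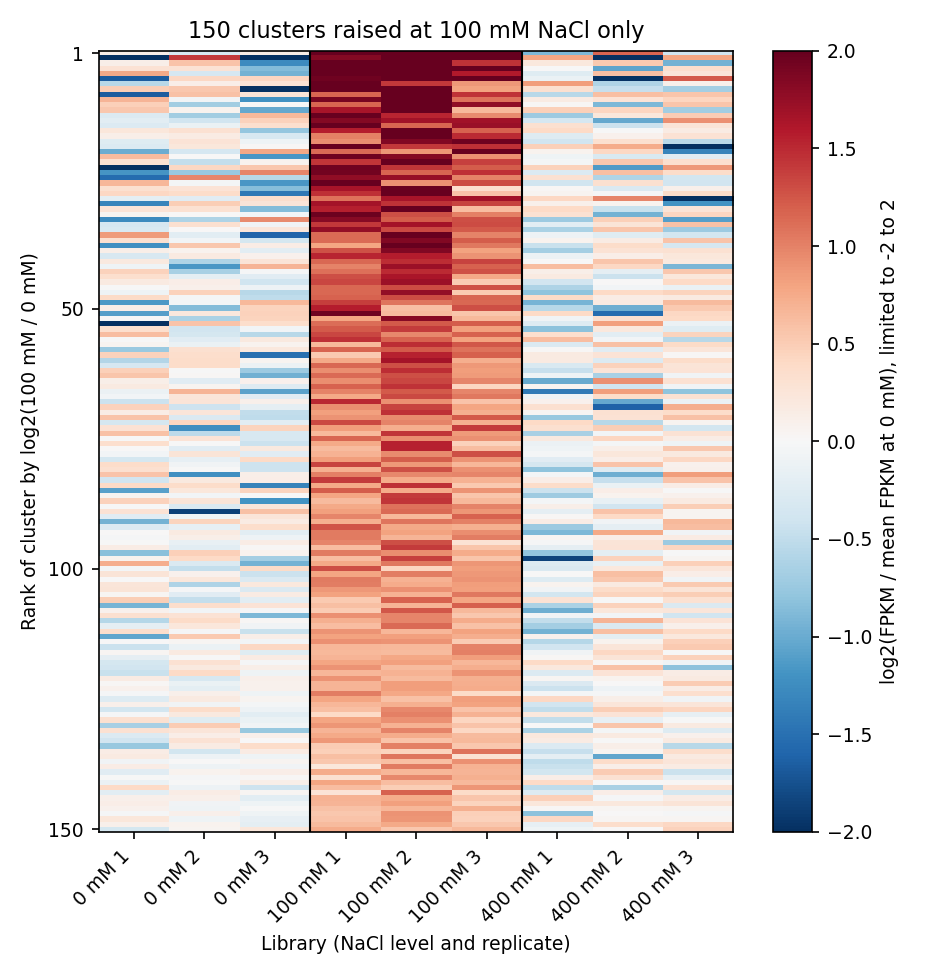
Rows are the 150 clusters by rank and columns the 9 libraries; colour gives log2 of FPKM over the cluster's mean at 0 mM, limited to -2 to 2. The 3 libraries at 100 mM are red in every row by selection, most deeply in replicate 2, while rows near the top also vary more within 0 and 400 mM.

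Libraries of the same number were compared between the levels. Of the 58 members lowest in replicate 3 at 0 mM, 63.8% were also lowest in replicate 3 at 100 mM, beside 36.96% of the other 92. In the table the same shares were 38.9% and 37.3%. Over all clusters tested, the deviations within levels of these libraries correlated at r = -0.009, the lowest of the 9 pairs of the same number. Over all pairs of members the deviations within levels correlated at a median r of 0.079, beside 0.022 over the table, a description over libraries that all members share.

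How far the groups stood apart varied widely. The lowest 100 mM library was 1.0005 to 3.49 times the highest of the other 6, with a median of 1.17. The margin was at least 50% in 22 members and at least 100% in 3, at ranks 1, 4 and 46. In 24 members it was under 5%.

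Against 0 mM, 6 of the 147 members tested passed edgeR's quasi-likelihood test (adjusted p under 0.05) as higher at 100 mM, beside 0.424% of the 56832 clusters tested. The rule used this contrast, so the count is a description. The other 3 members, at ranks 26, 42 and 80, had too few counts to be tested. The 6 were not those with the largest ratios. They stood at ranks 15, 34, 46, 94, 141 and 145, were 2219 to 3957 bases long, and all exceeded the members' median length. Rank 46 was the clearest of them, with 11.6, 12.5 and 10.8 FPKM at 0 mM, 25.7, 28.8 and 28.2 at 100 mM and 7.62, 11.2 and 10.6 at 400 mM. Its 3 libraries at 100 mM had a CV of 5.95% and were all at least 2.06 times as high as any other, with a fitted log2 fold change of 1.498 (standard error 0.194, edgeR adjusted p = 0.0395). Rank 94 held 15.5, 17.1 and 14.8 FPKM at 0 mM, 32.5, 25.3 and 32.2 at 100 mM and 16.3, 17.4 and 17.7 at 400 mM (log2 fold change 1.17, edgeR adjusted p = 0.0393). Rank 34 held 14.8, 23.2 and 17.7 FPKM at 0 mM and 49.4, 58.7 and 45.9 at 100 mM (log2 fold change 1.72, edgeR adjusted p = 0.0499). The other called members, at ranks 15, 141 and 145, had fitted log2 fold changes of 1.94, 0.93 and 0.91.

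**Figure D4:**
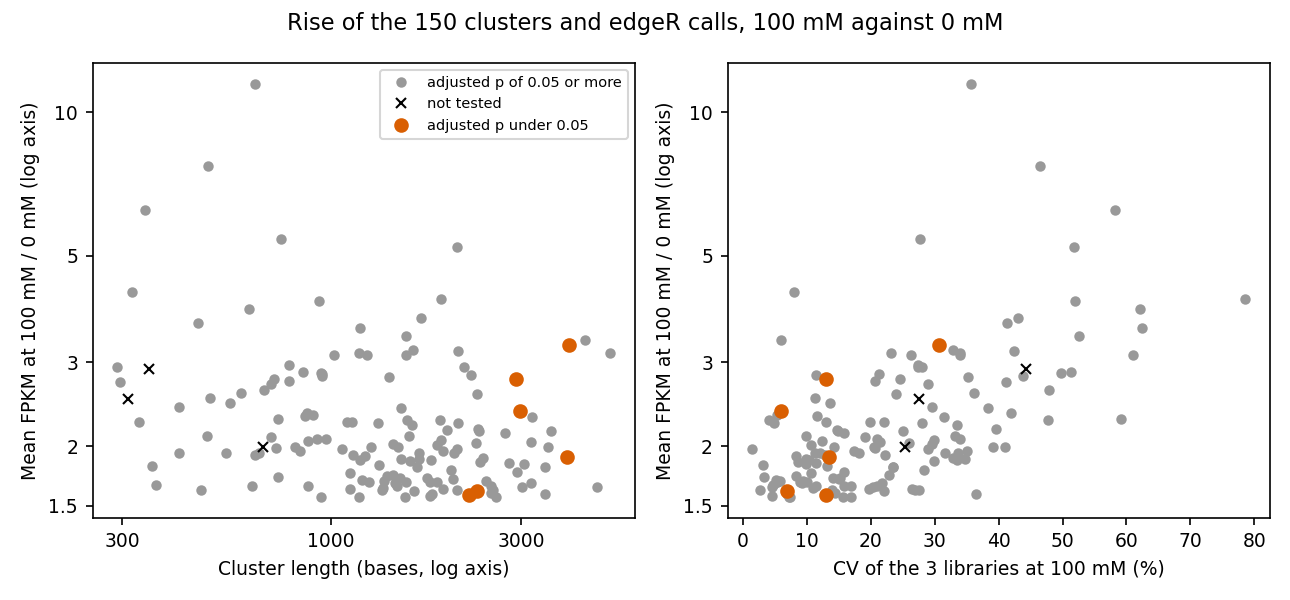
Ratio of mean FPKM at 100 mM to 0 mM (y axis, log scale) against cluster length (left, log scale) and against the CV of the 3 libraries at 100 mM (right) for the 150 clusters. The 6 clusters that passed edgeR's test (orange) are 2219 to 3957 bases long, and the crosses mark the 3 not tested.

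Over the 147 members tested, the fitted log2 fold change at 100 mM against 0 mM ran from 0.89 to 3.74 with a median of 1.26, beside a median of -0.06 over all clusters tested. The calls depended on single libraries, among the members as over all clusters. Leaving out any library at 0 or 100 mM, or 400 mM replicate 2, gave 0 members, while the calls over all clusters dropped from 241 to between 0 and 5. When 400 mM replicate 1 was left out 14 members were called, of 614 clusters in all, and when 400 mM replicate 3 was left out 4 members, of 156. DESeq2 called 104 of the members higher, beside 3.09% of the 120105 clusters with a p-value in that fit. That fit took in clusters outside the deposited table, from which all members come. Clusters without an adjusted p counted as not called. The same holds for the DESeq2 shares below.

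Between 400 and 100 mM the members stood lower again, with a median fitted log2 fold change of -1.01 and a range from -3.34 to -0.47. The median over all clusters tested was 0.03. None passed edgeR's quasi-likelihood test, which called 0% of all clusters in this comparison. The lowest adjusted p among the members was 0.269, at rank 46, where the log2 fold change was -1.55 (standard error 0.194). At an unadjusted p under 0.05, 102 members were lower at 400 mM, beside 3.39% of all clusters tested. At the same limit 130 were higher at 100 than at 0 mM, beside 8.9% of all clusters. Both comparisons share the 100 mM libraries and were used by the rule. DESeq2 called 48 members lower at 400 mM, beside 0.574% of clusters.

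At 400 mM the members came close to their level without salt, as the rule required, but not evenly around it. On the deposited FPKM scale the mean at 400 mM was above that at 0 mM in 107 members and below it in 43, with a median log2 ratio of 0.105. The libraries of both levels overlapped in all members but 1. Over the table, all 400 mM libraries were above those at 0 mM in 9.67% of clusters and below them in 17.8%, and among its 11617 clusters within the same window 4.80% had either. The window favours overlap, so the count is a description. The exception was rank 145, at 88.2, 76.8 and 75.7 FPKM at 0 mM and 94.4, 92.7 and 95.5 FPKM at 400 mM, with 129, 142 and 110 FPKM at 100 mM. No member passed edgeR's quasi-likelihood test between 400 and 0 mM, which called 0% of clusters. At an unadjusted p under 0.05, 2 members were higher at 400 mM, at ranks 117 and 145, and none was lower, beside 8.13% and 4.9% of all clusters tested. DESeq2 called 1 member higher at 400 mM, beside 2.44% of clusters.

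How close the return was depended on the scaling. The TMM factors were 1.09 to 1.15 at 0 mM, 0.881 to 1.0006 at 100 mM and 0.915 to 1.0046 at 400 mM. With FPKM rescaled by them, 132 members stood above their 0 mM mean at 400 mM, with a median log2 ratio of 0.30. The window of 0.3 then held 76 members, 74 lay above it and none below it. The median of the whole table moved from -0.14 to 0.04 in the same ratio. The difference from 0 mM was larger on this scale, with a median log2 ratio of 1.26 between 100 and 0 mM in place of 1.0017, and 145 members kept all 100 mM libraries above the other 6. The summed level became 6941 ± 1062 with 100 mM NaCl, beside 2867 ± 237 without salt and 3553 ± 537 with 400 mM NaCl (SD, n = 3). In all, 73 of the 150 met every condition on the rescaled levels.

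**Figure D5:**
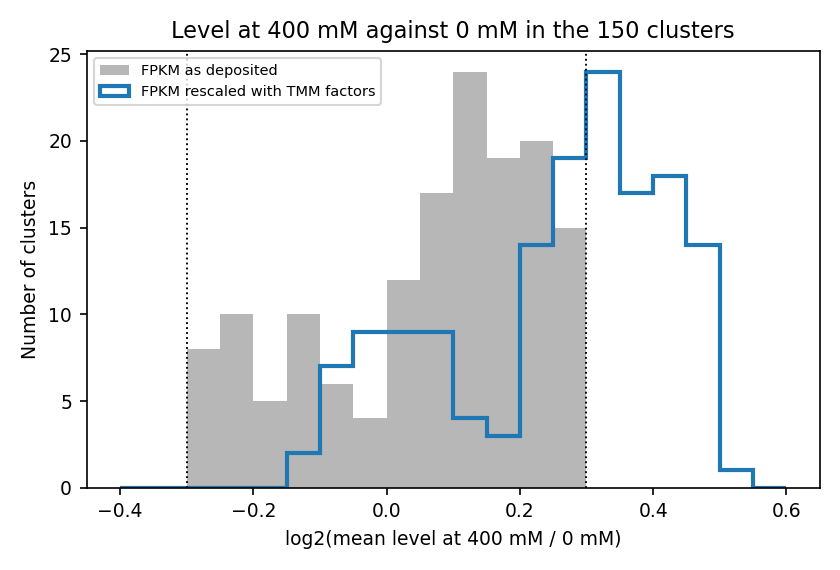
Number of the 150 clusters (y axis) by log2 ratio of the mean level at 400 mM to 0 mM (x axis), for FPKM as deposited (filled) and after rescaling with TMM factors (outline). Dotted lines mark the limits of -0.3 and 0.3, and 74 clusters lie above the upper limit after rescaling.

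Clusters with the same course also occurred outside the deposited table, which holds clusters of at least 0.31 FPKM in every library. Over all 126059 clusters 369 met the conditions, 104 of them outside the table, with a median level at 100 mM of 1.04 FPKM. Of these, 65 were listed at 0 in at least 1 library at 0 or 400 mM, and the other 39 were above 0 in every library. Ranked together by the same ratio, 97 of the 150 highest would come from outside the table. The members are therefore the steepest of the deposited table, not of the series.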

How the data were processed

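Leaf RNA was sequenced in 9 libraries. The submitters' processing notes list Bowtie2 2.0.6 and TopHat2 2.0.9 but not what each was used for. The assembler, the counting tool and the strand setting are not stated in these sources. The deposited library tables hold estimated counts, which are not whole numbers in every row, and the authors' FPKM values, per the file headers. A deposited series table gives the FPKM and length of 31628 clusters. Counting may have split reads between similar clusters, so a cluster is not certain to be 1 gene.

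Members were found with Python 3.11.15 and pandas 2.3.3. Estimated counts were rounded (ties to the even number) and fitted in R 4.3.3 with edgeR 4.0.16 (quasi-likelihood test, default filterByExpr filter, TMM, salt level as 3 groups, 6 residual degrees of freedom), with Benjamini-Hochberg adjustment over 56832 clusters. Standard errors are the fitted log2 fold change over the square root of F. The code of the fit was tested on simulated data, with less spread and larger changes than in most members. That test does not speak of the fit at the members' own spread and changes. DESeq2 1.42.0 and limma 3.58.1 on log2(FPKM + 1) and log2(FPKM + 0.1) were alternatives.

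The members and lists were chosen with earlier results of these data known. Cluster names were printed for ranks 1 and 2 and for the 2 other members lowest at 400 against 100 mM; further members are given by rank: ranks 5 to 10, the 5 most abundant at 100 mM, the 3 longest, the shortest, those at the rank limit, and those singled out after their values were seen. No sequence was printed.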

Additional observations from a re-analysis of the deposited data

How the results depend on the processing

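The number of clusters that met the conditions before ranking, 265, was 627 on TMM-scaled and 646 on DESeq2-scaled FPKM, and ranged from 294 to 677 over the 9 ways to leave out 1 library. It was 458 without 0 mM replicate 1 and 429 without 400 mM replicate 3. Leaving out 100 mM replicate 1 gave 541, and leaving out 100 mM replicate 3 gave 677. All 9 counts lie above 265. The condition of no overlap is easier to meet with 1 library fewer, so a rise is in part built in. Without a 100 mM library the count could not fall. Of the 150 members, 73 and 82 still met the conditions on these scales, 97 with a window of 0.2, and 101 to 150 with 1 library left out. The 150 is fixed where a 100 mM library is left out; without 1 library at 0 or 400 mM it was 101 to 116. Ranked anew, 61 to 101 members stayed among the 150 highest with 1 library left out. Without replicate 1 of both salt levels, a choice made after seeing the data, 583 clusters and 104 members met them. The cause was not tested.

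Of 241 clusters called higher at 100 against 0 mM, 6 were members. This became 1 of 105 with library size alone, 2 of 187 with only the 2 levels compared, 41 of 996 with at least 10 counts in every library (127 members and 28297 clusters tested), 104 of 3707 with DESeq2, and 29 of 914 and 17 of 714 with limma on log2(FPKM + 1) and log2(FPKM + 0.1), on 31628 clusters. With 1 library left out the count ranged from 0 to 14. For 400 against 100 mM the count of 0 became 48 with DESeq2, and for 400 against 0 mM 1; no other alternative changed either. Library size alone shifted the median over all clusters (log2) from -0.06 to -0.31 at 100 mM and from -0.02 to -0.21 at 400 mM. Rounding ties upward, also chosen after seeing the data, left 6 calls.

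The labels do not say what a replicate number marks. Deviations of same-numbered libraries correlated at -0.009 to 0.172 (median 0.022), and those of different number at -0.108 to 0.057 (median -0.012). The value of 0.172 was between replicate 1 at 100 mM and at 400 mM. Of the 9 libraries, 6 correlated best with their own number. With the replicate block, 8 members of 549 clusters were called higher at 100 against 0 mM and 0 members in the other comparisons, where 82 clusters were called higher and 1 lower at 400 against 0 mM.

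Counts as low as 1 read limit the scarce members, and intervals between replicates rest on 3 libraries.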
